A study of Homo sapiens with 15 samples.

Results

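The aryl hydrocarbon receptor genes described here are 7 of the 33158 gene symbols in the deposited table: the receptor AHR, its partners ARNT and ARNT2, its repressor AHRR, and the target genes TIPARP, CYP1A1 and CYP1B1. They were taken by symbol, and the group was chosen because CYP1B1 changed in opposite directions between fractions of the sorted lines, so the values of CSCs against non-CSCs are given for these 7 genes as a description, with no test. All 7 were in the table, and all 7 passed the expression minimum of each comparison, a mean of 0.1 FPKM over the libraries compared, ARNT2 in part only through the group where it was higher.

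RNA was sequenced from triple negative breast cancer lines to compare cancer stem cells (CSCs) with non-CSCs. There were 15 libraries in 5 groups of 3: CSCs and non-CSCs of SUM149PT, CSCs and non-CSCs of HCC1937, and SUM159PT, which was not sorted and which the study treats as CSCs. CSCs were defined by the surface phenotype CD44+CD24-/low. No drug, AHR ligand or genetic change is named in the labels for any group, each group comes from a single established line, and the labels do not say whether the 3 libraries of a group came from separate cultures, so p-values measure the spread between these libraries, which may be technical.

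AHR is a transcription factor that waits in the cytoplasm bound to HSP90. When a ligand binds, such as dioxin, a polycyclic hydrocarbon or a tryptophan metabolite, AHR moves to the nucleus, pairs with ARNT and binds DNA at sites with the core GCGTG. Among its best known targets are the cytochrome P450 enzymes CYP1A1 and CYP1B1, which oxidize hydrocarbons and estrogens, and the feedback genes AHRR and TIPARP.

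Because members of this group move together or apart between fractions, promoters of AHR-induced genes of the group are shown. RefSeq promoters on GRCh38.p14 were matched for 5 of the 7 genes (8 start sites), all but CYP1B1 and ARNT2, and the 250 bases before each start were searched on both strands for GCGTG. The core was present before 4 of the 8 start sites, belonging to AHRR, CYP1A1 and TIPARP, and before 0 of the start sites of AHR and ARNT. Of 35116 human promoters of the same length, 32.2% held the core at least once. For AHRR and TIPARP 1 of several start sites is shown. The AHRR window lies at chr5:321464-321713 on the forward strand, the CYP1A1 window at chr15:74725529-74725778 on the reverse strand and the TIPARP window at chr3:156674340-156674589 on the forward strand. Each is written 5′ to 3′ along its gene, with the core in capitals. It starts at position -30 from the start site in AHRR and at -57 in CYP1A1, and in TIPARP it lies on the opposite strand, as CACGC, at -208 and -142. The other AHRR start site, with the window chr5:322360-322609, has the core at -247 and -42, and 2 further TIPARP start sites have none. The AHRR copy shown is also part of the longer motif TNGCGTG, which 4.52% of promoters held.
AHRR: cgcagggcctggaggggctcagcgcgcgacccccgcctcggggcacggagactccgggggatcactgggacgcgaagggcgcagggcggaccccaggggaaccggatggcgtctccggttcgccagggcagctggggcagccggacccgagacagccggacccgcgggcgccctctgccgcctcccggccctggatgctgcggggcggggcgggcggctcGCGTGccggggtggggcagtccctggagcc
CYP1A1: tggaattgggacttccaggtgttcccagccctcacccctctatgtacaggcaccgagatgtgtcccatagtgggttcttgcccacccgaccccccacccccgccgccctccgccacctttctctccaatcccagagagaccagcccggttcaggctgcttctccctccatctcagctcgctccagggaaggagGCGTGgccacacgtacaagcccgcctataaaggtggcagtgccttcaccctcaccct
TIPARP: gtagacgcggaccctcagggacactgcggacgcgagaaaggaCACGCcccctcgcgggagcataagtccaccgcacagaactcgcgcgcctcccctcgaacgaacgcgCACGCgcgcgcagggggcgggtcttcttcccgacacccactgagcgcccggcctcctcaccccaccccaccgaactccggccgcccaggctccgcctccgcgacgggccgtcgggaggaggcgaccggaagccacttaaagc

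Values are FPKM, fragment counts scaled for transcript length and for the mapped fragments of the library. The sources used here do not say whether they were corrected for the GC content of the transcript. A trend with GC content limits comparisons between genes in SUM159PT, as described further on. The sort was visible in the RNA: for CD24 the SUM149PT fractions had 7.74 ± 0.198 FPKM (CSCs) and 139.5 ± 6.53 (non-CSCs), and the HCC1937 fractions 23.3 ± 0.747 and 150.04 ± 14.3 (SD, n = 3 each). CD44 had 84.4 ± 2.08 and 64.5 ± 2.86 FPKM in SUM149PT, and 106.3 ± 6.33 and 97.8 ± 3.98 in HCC1937, where the libraries of the fractions overlapped. Epithelial genes moved with the sort. Of 10 epithelial markers, 9 were called lower in CSCs in each line, by the limits given further on. KRT14 was lower too but not called, at 0.822 against 1.28 FPKM in SUM149PT and 109.1 against 170.2 in HCC1937. The summed level of the 10 was 153.3 to 159.7 FPKM in CSCs and 2337 to 2373 in non-CSCs of SUM149PT, and 627.9 to 738.5 and 1783 to 2042 in HCC1937. The most abundant of them was KRT19 in SUM149PT non-CSCs (1127 ± 22.1 FPKM) and KRT18 in HCC1937 non-CSCs (611.5 ± 73.5). Of 7 mesenchymal markers, 5 were called higher and 1 (TWIST1) lower in CSCs of SUM149PT, and 6 were called higher in CSCs of HCC1937. FN1 was not called in SUM149PT, at 288.2 FPKM in CSCs against 222.6 in non-CSCs. VIM led this list, at 2090 ± 90.2 FPKM in SUM149PT CSCs against 243.8 ± 34.6 in non-CSCs, and the list summed to 2377 to 2521 and 463.5 to 523.7 FPKM in these fractions, and to 933.6 to 1088 and 145.7 to 217.2 in those of HCC1937. In SUM159PT the epithelial list summed to 277.8 to 293.2 FPKM and the mesenchymal list to 1233 to 1262. Whether the epithelial and mesenchymal difference has a part in the values that follow was not tested, and in sorted bulk samples fewer cells expressing a gene and less RNA per cell cannot be told apart. Markers of other cell types were listed too. The leukocyte genes PTPRC, CD3E and LYZ were at most 0.0986 FPKM in any library, and CD3E was listed at 0 in all 15. The other leukocyte markers, CD14 and CD68, were present: the list summed to 18.2 to 19.3 FPKM in CSCs and 95.6 to 102.8 in non-CSCs of SUM149PT, to 93.6 to 107.8 in CSCs and 67.4 to 72.6 in non-CSCs of HCC1937, and to 47.7 to 53.97 in SUM159PT. CD14, a lipopolysaccharide co-receptor, was the most abundant of them in SUM149PT non-CSCs and HCC1937 CSCs and CD68 in the other groups. CD14 had 2.66 ± 0.435 FPKM in CSCs against 51.3 ± 2.35 in non-CSCs for SUM149PT and 60.3 ± 6.003 against 30.3 ± 2.25 for HCC1937, an opposite order between lines like that of CYP1B1 described further on. The part of CD14-expressing cells in that result was not tested. Of 6 fibroblast markers, 5 were tested in SUM149PT (3 called higher and 1 lower in CSCs) and 3 in HCC1937 (1 called higher), and their sum was 233.95 to 239.5 FPKM in SUM149PT CSCs, 67.01 to 70.4 in SUM149PT non-CSCs and at most 46.3 in the other libraries, with COL1A1 the most abundant at 216 ± 2.81 in SUM149PT CSCs. The 3 endothelial markers summed to at most 1.83 FPKM in any library. In SUM149PT they summed to 0.157 to 0.171 FPKM in CSCs and 1.59 to 1.83 in non-CSCs, and all 3 were called lower in CSCs. In HCC1937 the sums were 0.660 to 0.773 in CSCs and 0.797 to 0.968 in non-CSCs, with 1 of 2 tested called lower.

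The SUM159PT libraries stood apart from the 12 sorted ones. Their FPKM summed to 634746 to 652082 over all genes, against 291276 to 366532, and 8534 to 8670 genes exceeded 1 FPKM, against 11249 to 11997. For genes with a mean of 1 FPKM or more, the deviation of log2(FPKM + 0.1) from the gene's own mean over the 15 libraries was taken. Across genes it correlated with the GC content of the transcript, with a Spearman rho of 0.59 in each SUM159PT library. In the sorted libraries rho was -0.22 to -0.41. That mean includes the SUM159PT libraries, so the negative values partly mirror the SUM159PT trend and do not describe levels within a library. Line, sorting and library preparation cannot be told apart for SUM159PT, so for the 7 genes, the counts and the pathway genes described, its differences are also given with the GC trend removed, an alternative chosen after seeing the data. Ratios and ranks between genes within SUM159PT are given as deposited only. FPKM holds no read counts, and the depth of each library is unknown.

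CYP1B1, the P450 that hydroxylates estradiol to a catechol estrogen, was the most abundant CYP1 enzyme of the sorted cells. In SUM149PT it was listed at 7.01, 6.18 and 7.89 FPKM in CSCs (replicates 1, 2 and 3, an order kept throughout) and at 138, 124 and 119.9 FPKM in non-CSCs. In HCC1937 the order of the fractions was the opposite, with 24.6, 26.0 and 28.2 FPKM in CSCs and 4.18, 5.85 and 5.71 in non-CSCs. The mean was thus 18.1-fold lower in CSCs of SUM149PT and 5.01-fold higher in CSCs of HCC1937, with no overlap between fractions in either line. On the scale of log2(FPKM + 0.1), which understates the change of low genes, the difference was -4.16 ± 0.11 in SUM149PT and 2.32 ± 0.15 in HCC1937 (SE, n = 3 per group). SUM159PT had 0.169, 0.0761 and 0.0797 FPKM. Over the 5 groups the level fell from SUM149PT non-CSCs to HCC1937 CSCs, SUM149PT CSCs, HCC1937 non-CSCs and SUM159PT, and no neighbours in this order overlapped.

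CYP1A1, which activates polycyclic hydrocarbons and is the classical readout of AHR activity, moved the same way at lower levels. It was at 0.964, 0.741 and 1.11 FPKM in CSCs and at 11.04, 10.53 and 10.84 in the non-CSC fraction of SUM149PT. HCC1937 had 2.09, 1.93 and 1.18 FPKM in CSCs and 0.249, 0.537 and 0.613 in non-CSCs. Fractions did not overlap in either line, and the mean was 11.5-fold lower in CSCs of SUM149PT and 3.72-fold higher in CSCs of HCC1937 (log2 differences of -3.41 ± 0.14 and 1.72 ± 0.34, SE, the latter 0.89 with a pseudocount of 1 in place of 0.1). SUM159PT, at 1.13, 1.58 and 1.24 FPKM, overlapped HCC1937 CSCs and lay above all SUM149PT CSC libraries. The level of CYP1B1 was 7.09 to 8.35 times that of CYP1A1 in SUM149PT CSCs, 11.1 to 12.5 times in SUM149PT non-CSCs, 11.8 to 23.8 times in HCC1937 CSCs and 9.31 to 16.8 times in HCC1937 non-CSCs. In SUM159PT this ratio was 0.0481 to 0.149 as deposited, with CYP1A1 the more abundant enzyme. It holds the GC trend of these libraries, with a GC content of 44.1% for CYP1B1 and 53.3% for CYP1A1. Its size with the trend removed was not computed.

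**Figure D1:**
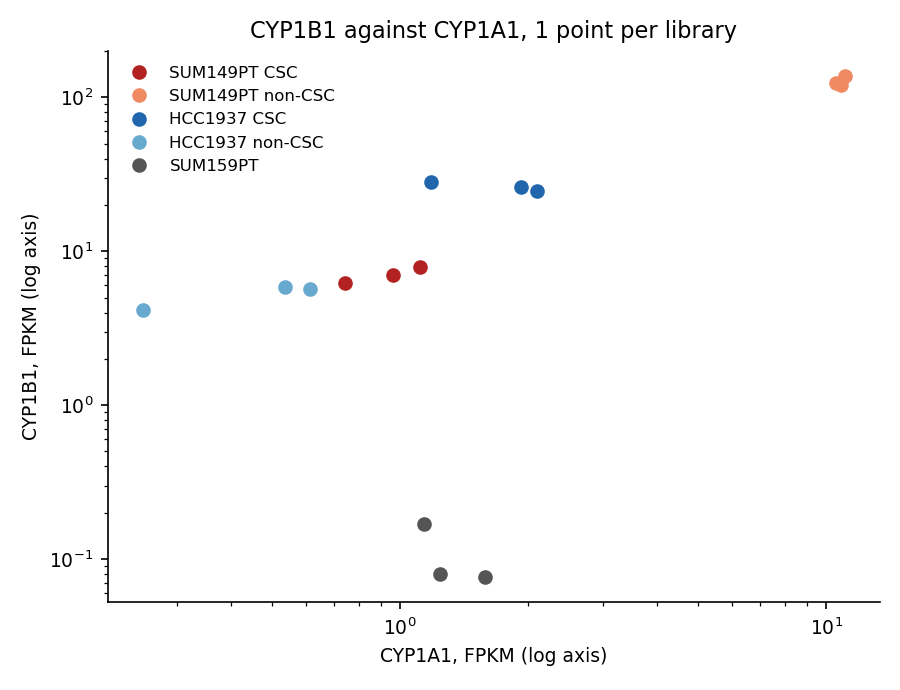
CYP1B1 FPKM (vertical, log axis) against CYP1A1 FPKM (horizontal, log axis), 1 point for each of 15 libraries, coloured by group. The SUM149PT non-CSC points lie apart at the upper right (119.9 FPKM or more of CYP1B1), the HCC1937 CSC points come next in CYP1B1, and the SUM159PT points lie below 0.17 FPKM of CYP1B1 at CYP1A1 levels like those of the CSC groups.

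TIPARP, a mono-ADP-ribosyltransferase that is induced by AHR and represses it, showed the same opposite order with smaller differences. It stood at 32.2, 30.7 and 30.6 FPKM in CSCs and at 57.1, 58.8 and 53.1 in SUM149PT non-CSCs, with 32.2, 33.7 and 33.0 in CSCs and 26.1, 26.3 and 27.5 in non-CSCs of HCC1937. The fractions did not overlap, with log2 differences of -0.85 ± 0.06 and 0.31 ± 0.06 (SE). SUM159PT had 1.43, 1.46 and 1.93 FPKM, below every sorted library.

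AHRR, the repressor that competes with AHR for ARNT, did not follow the other targets. In SUM149PT it was higher in CSCs, at 9.83, 8.49 and 9.08 FPKM against 3.24, 3.18 and 3.57 in non-CSCs, and in HCC1937 it was also higher in CSCs, at 1.49, 1.52 and 1.30 FPKM against 0.527, 0.823 and 0.845. The log2 differences were 1.43 ± 0.08 and 0.91 ± 0.18 (SE; 0.50 for the latter with a pseudocount of 1), without overlap. SUM159PT had 8.51, 9.25 and 8.39 FPKM and overlapped SUM149PT CSCs. The gene PDCD6 shares 244 exon bases with AHRR on the same strand and was listed at 20.1 to 56.1 FPKM, so fragments from the shared bases cannot be assigned with certainty.

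AHR itself was higher in CSCs of both lines. It was at 27.0, 25.1 and 26.3 FPKM in CSCs and at 19.8, 19.6 and 18.4 in SUM149PT non-CSCs, with 13.6, 13.2 and 13.8 in CSCs and 7.28, 7.85 and 7.45 in non-CSCs of HCC1937. Part of the AHR exons, 2373 bases, is shared on the same strand with AC019117.2, a GENCODE gene model that is not in the deposited table. The annotation behind the FPKM values is not given, so whether this overlap bears on the AHR values is unknown. The log2 differences of AHR were 0.44 ± 0.06 and 0.84 ± 0.07 (SE). In SUM159PT it was listed at 0.801, 0.995 and 1.14 FPKM, and no neighbouring groups overlapped in the order SUM149PT CSCs, SUM149PT non-CSCs, HCC1937 CSCs, HCC1937 non-CSCs and SUM159PT. ARNT, the general partner of AHR and of the hypoxia factors, had nearly the same order: 11.9, 11.1 and 11.6 FPKM in CSCs and 8.66, 8.54 and 7.91 in non-CSCs of SUM149PT, and 5.88, 6.54 and 6.52 in CSCs and 4.89, 3.75 and 4.55 in non-CSCs of HCC1937. Its log2 differences were 0.46 ± 0.06 and 0.52 ± 0.12 (SE), and SUM159PT, at 4.13, 4.09 and 4.33 FPKM, overlapped HCC1937 non-CSCs. The AHR level was 2.74 to 2.96 times that of AHRR in SUM149PT CSCs, 5.16 to 6.17 times in SUM149PT non-CSCs, 8.69 to 10.6 times in HCC1937 CSCs and 8.82 to 13.8 times in HCC1937 non-CSCs. In SUM159PT it was 0.0942 to 0.136 times as deposited. The transcripts of AHR and AHRR have a GC content of 38.2% and 57.4%, and this ratio holds the GC trend of the SUM159PT libraries. It was not computed with the trend removed, so no order of AHR and AHRR in SUM159PT is read from it.

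ARNT2, the partner found mainly in neural and kidney tissue, was low. It reached 0.069, 0.0545 and 0.128 FPKM in CSCs and 0.340, 0.370 and 0.411 in non-CSCs of SUM149PT (log2 difference -1.38 ± 0.16, SE). In HCC1937 it was at 0.0848, 0.221 and 0.144 FPKM in CSCs and 0.0617, 0.0588 and 0.0846 in non-CSCs (0.54 ± 0.21, SE). The sizes moved with the pseudocount: they were -2.10 and 0.95 with 0.01, and -0.34 and 0.10 with 1, and -0.88 in SUM149PT after quantile normalization and 0.88 in HCC1937 with every library scaled to the same sum. The means of SUM149PT CSCs (0.084 FPKM) and HCC1937 non-CSCs (0.0684) were under the expression minimum, so in comparisons with these groups ARNT2 passed only through the other group. The HCC1937 fractions were separated by the difference between 0.0848 and 0.0846 FPKM. SUM159PT, with 1.42, 1.98 and 1.32 FPKM, was the group with the most ARNT2.

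**Figure D2:**
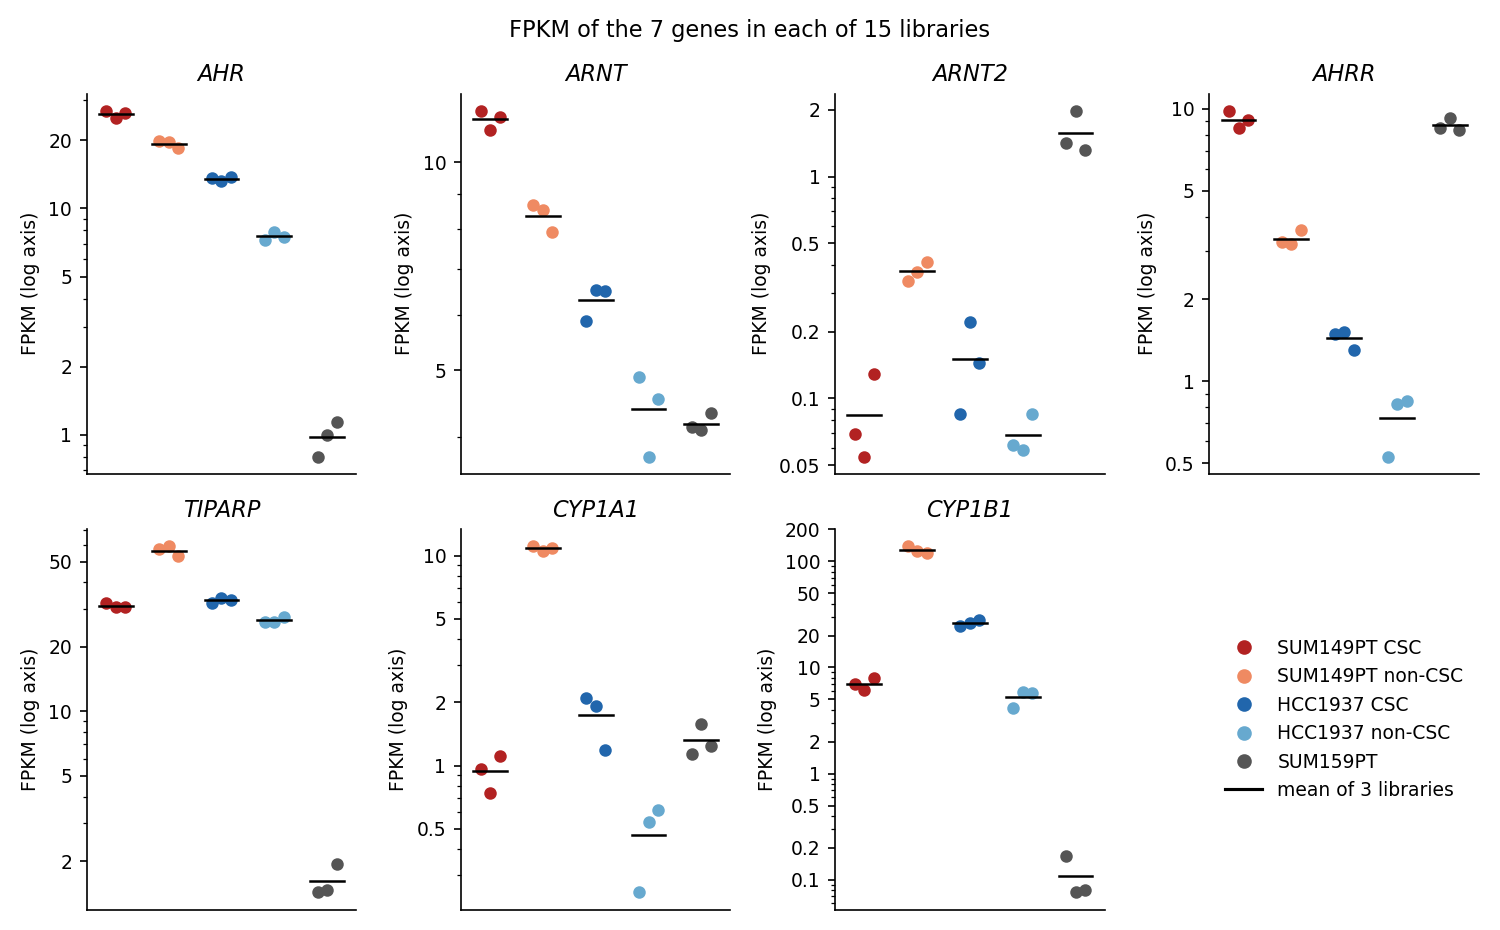
FPKM of each of the 7 genes (vertical, log axes with their own range per panel) in 15 libraries, 1 point per library and coloured by group from left to right as in the legend, with a bar at the mean of 3 libraries. AHR and ARNT step down from SUM149PT to HCC1937 with CSCs above non-CSCs in both lines, while TIPARP, CYP1A1 and CYP1B1 are highest in SUM149PT non-CSCs and, in HCC1937, higher in CSCs.

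Without overlap between fractions were 7 of 7 genes in both lines, a property shared by 78.7% of 16037 genes tested in SUM149PT and 43.4% of 15582 genes in HCC1937. In 4 of the 7 the directions were opposite between lines, a property of 12.2% of the 14423 genes tested in both. As these contrasts chose the group, nothing is read from either count. The fractions of HCC1937 differed less over all genes than those of SUM149PT: 2.71% of genes were called higher and 6% lower in HCC1937 CSCs, against 12.8% higher and 22.1% lower in SUM149PT CSCs (limma; a call needed a log2 difference of 1 or more in size with an adjusted p no higher than 0.05). The balance of these calls depends on the scaling, at 2045 higher and 3551 lower in SUM149PT as deposited and 2840 and 2735 after quantile normalization, and at 422 and 935 in HCC1937 as deposited and 645 and 886 with every library scaled to the same sum. The signs of the 7 differences were the same under every scaling run, with and without the GC trend.

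**Figure D3:**
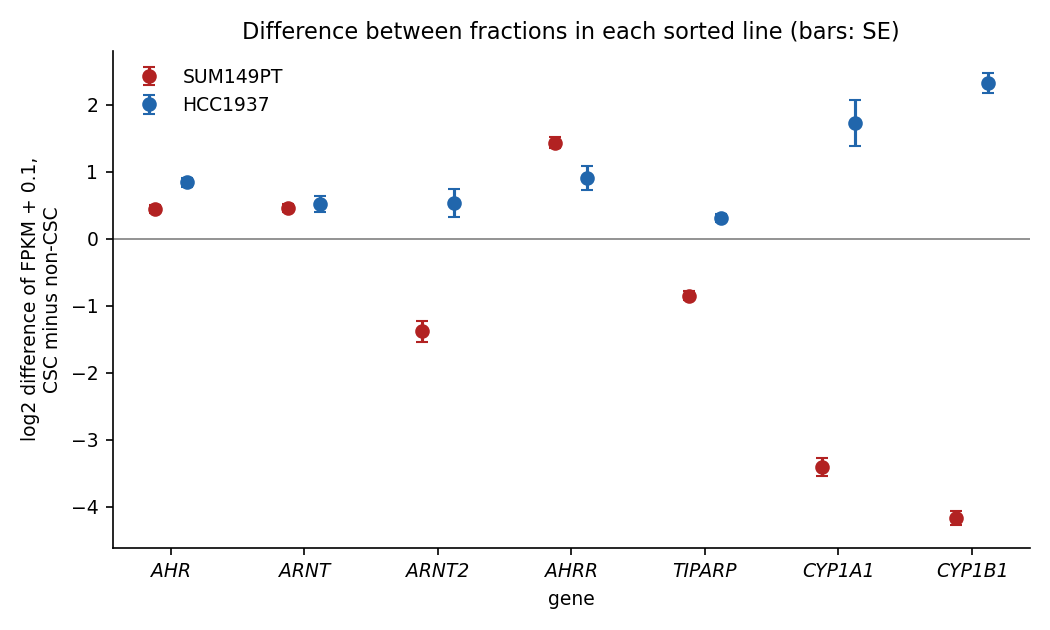
Difference between CSCs and non-CSCs in log2(FPKM + 0.1) for the 7 genes in SUM149PT and in HCC1937 (points, with SE as bars, 3 libraries per fraction). AHR, ARNT and AHRR lie above 0 in both lines, and ARNT2, TIPARP, CYP1A1 and CYP1B1 lie below 0 in SUM149PT (CYP1B1 at -4.16) and above 0 in HCC1937 (CYP1B1 at 2.32).

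Other genes of the pathway were followed in 5 lists with 64 genes in the table. The SUM149PT comparison tested 51 of them and called 4 higher and 12 lower in CSCs, beside 12.8% higher and 22.1% lower of all genes tested, with a median log2 difference of -0.26 against -0.11 over all genes. In HCC1937, 2 were higher and 6 lower of 52, beside 2.71% and 6% of all genes, with a median of 0.02 against -0.03, and with every library scaled to the same sum 5 were higher and 6 lower. Of the genes called, 3 of 16 in SUM149PT (ESR1, SIM1 and STS) and 1 of 8 in HCC1937 (CYP2S1) had a mean under 0.1 FPKM in CSCs and passed the expression minimum only through non-CSCs, where they were higher. Of 49 tested in both lines, 8 were called in both, which is 53.3% of the 15 called in SUM149PT and 100% of the 8 called in HCC1937. Of these 8 genes, 6 moved the same way and 2, KYNU and CYP2S1, moved in opposite ways. Over all genes tested in both lines, without the 7, 869 were called in both, which is 19% of the 4571 called in SUM149PT and 74.4% of the 1168 called in HCC1937, with 756 the same way and 113 (13%) in opposite ways.

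The list of the tryptophan and kynurenine route, which makes endogenous AHR ligands, had 3 of 8 genes lower and 0 higher in SUM149PT CSCs, and 1 of 9 higher and 1 lower in HCC1937 CSCs. KYNU, kynureninase, which breaks down kynurenine, had a mean of 7.55 ± 0.452 FPKM in SUM149PT CSCs against 62.8 ± 6.65 in SUM149PT non-CSCs (limma adjusted p = 4.28e-06). In HCC1937 it had 1.58 ± 0.402 FPKM in CSCs and 0.438 ± 0.0902 in non-CSCs (limma adjusted p = 0.0035). Within each line the direction between fractions was that of CYP1B1. IL4I1, an amino acid oxidase that yields indole ligands, was 7.13-fold lower in CSCs of SUM149PT (adjusted p = 3.44e-06) and was at 0.184 ± 0.0934 and 0.136 ± 0.0659 FPKM in HCC1937. SLC6A14, an amino acid transporter, was lower in CSCs of both lines, 29.5-fold in SUM149PT and 10.7-fold in HCC1937 (adjusted p = 1.5e-05 and 0.00019). TDO2 was listed at 0 in all 15 libraries and IDO1 at a mean of at most 0.463 FPKM in any group.

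Among 14 other AHR-induced genes, 9 were tested in SUM149PT (2 higher, 3 lower in CSCs) and 10 in HCC1937 (1 higher, 4 lower). SERPINB2, a protease inhibitor, had 7.40 ± 0.263 FPKM in SUM149PT CSCs against 214.6 ± 11.1 in the non-CSCs, and 1.05 ± 0.190 against 3.39 ± 0.336 in HCC1937 (adjusted p = 1.4e-06 and 0.001). PTGS2, the inducible cyclooxygenase, was also lower in CSCs of both lines, 5.27-fold and 2.41-fold. UGT1A6, a glucuronosyltransferase of the AHR battery, was lower in CSCs of both, at 1.91 ± 0.426 against 7.12 ± 0.445 FPKM in SUM149PT and 0.123 ± 0.0964 against 1.27 ± 0.553 in HCC1937, with log2 differences of -1.87 ± 0.17 and -2.62 ± 0.43 (SE, adjusted p = 0.00017 and 0.0082), the latter not called with a replicate block (adjusted p = 0.0527). EREG, a ligand of the EGF receptor, was higher in CSCs of both, at 40.2 ± 1.01 against 9.09 ± 0.642 FPKM in SUM149PT and 63.97 ± 2.89 against 21.8 ± 2.55 in HCC1937. CYP2S1, another AHR-inducible P450, ran opposite to CYP1B1: its SUM149PT means were 17.96 ± 0.716 FPKM (CSCs) and 2.34 ± 0.555 (non-CSCs), and its HCC1937 means 0.0801 ± 0.0416 and 0.290 ± 0.0735. The HCC1937 call of CYP2S1 (adjusted p = 0.0147) was lost without replicate 2 of its CSCs (log2 difference -0.99) or replicate 1 of its non-CSCs (adjusted p = 0.0574), with the GC trend removed (-0.99) and with a pseudocount of 1 (-0.26).

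In the list of the AHR complex and its coregulators, 1 of 16 genes was lower and 0 higher in SUM149PT CSCs, and 1 was lower in HCC1937 CSCs. In both lines the gene was ESR1, the estrogen receptor that AHR can repress. It was low in all groups and lower in CSCs, at 0.0743 ± 0.0269 and 0.970 ± 0.207 FPKM in SUM149PT and 0.393 ± 0.0705 and 1.66 ± 0.169 in HCC1937. Of the other bHLH-PAS factors, which are relatives of AHR, 2 were higher (NPAS1 5.26-fold, SIM2 3.10-fold) and 2 lower (NPAS2 8.02-fold, SIM1) of 9 in SUM149PT CSCs, and 0 of 10 were called in HCC1937. SIM1 was at 0.291 ± 0.048 FPKM in SUM149PT non-CSCs and 0.00765 ± 0.00363 in CSCs, and passed the expression minimum only through the non-CSCs.

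The genes that pass electrons to CYP1 enzymes or handle estrogens included 0 higher and 3 lower of 9 in SUM149PT CSCs and 0 called of 7 in HCC1937. The estrogen-handling enzymes HSD17B2 (7.68 ± 0.795 FPKM in non-CSCs, 0.225 ± 0.099 in CSCs) and STS (1.10 ± 0.0822 and 0.0671 ± 0.0226) were lower in CSCs of SUM149PT, as was the glutathione transferase GSTM3 (4.50 ± 0.372 and 0.272 ± 0.0567). POR, the reductase that supplies electrons to CYP1 enzymes, had 18.7 ± 1.06 FPKM in SUM149PT CSCs against 23.2 ± 1.28 in the non-CSCs, and 13.98 ± 0.998 against 15.1 ± 0.421 in HCC1937. With a pseudocount of 1, ESR1, SIM1 and STS were no longer called in SUM149PT (log2 differences of -0.87, -0.36 and -0.97), nor ESR1, UGT1A6 and KYNU in HCC1937 (-0.94, -0.99 and 0.83). The difference of the CSC effect between lines was tested over the 12 sorted libraries: 4 of 53 pathway genes had a higher and 11 a lower log2 difference in SUM149PT than in HCC1937, against 12.2% and 18.2% of 16451 genes. Of these 15, HSD17B2 and SLC7A8 were under 0.1 FPKM in both fractions of 1 line and passed the expression minimum only through the other line, and SIM1, STS and CYP2S1 were under it in 1 of the 4 groups.

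**Figure D4:**
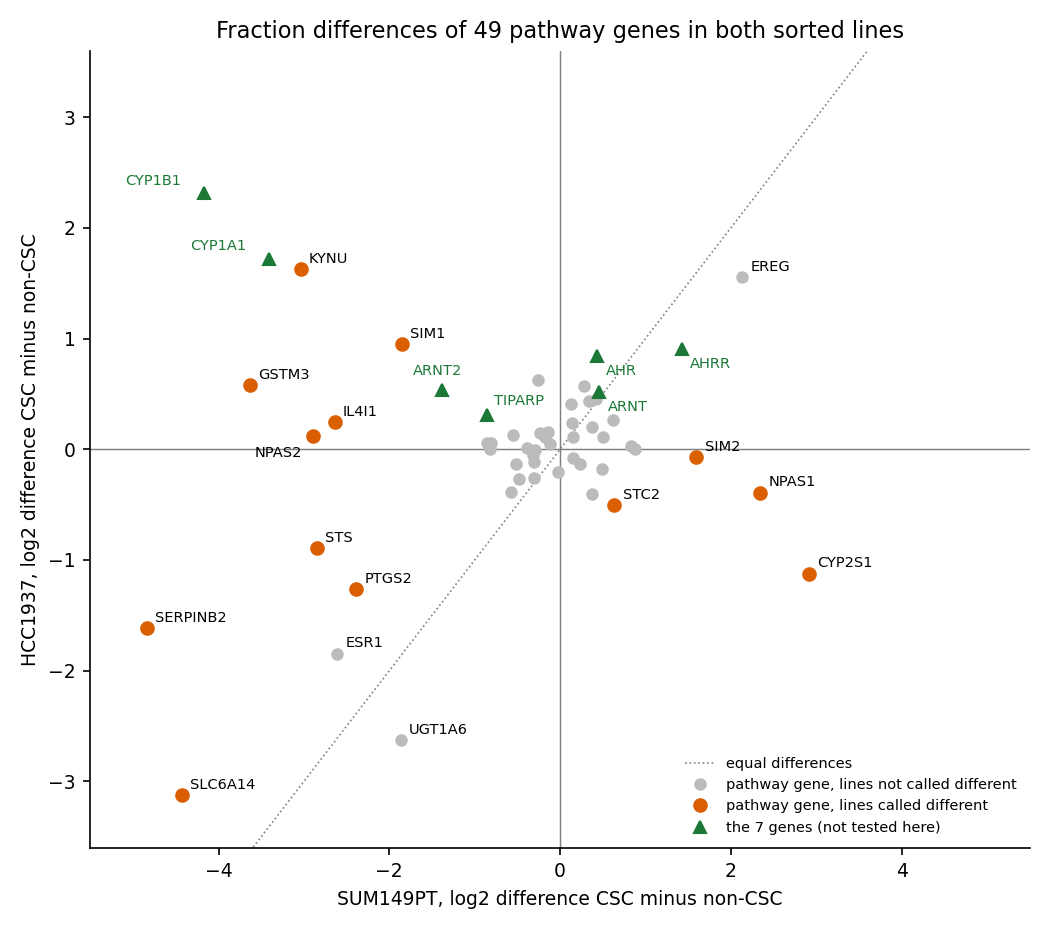
Log2 difference between CSCs and non-CSCs in SUM149PT (horizontal) and HCC1937 (vertical) for 49 pathway genes tested in both lines (circles) and for the 7 genes of the group (triangles). Orange circles are the 13 plotted genes whose difference between lines was called, gray circles the rest, and the dotted line marks equal differences. KYNU lies at the upper left near CYP1A1 and CYP1B1, and CYP2S1 lies at the lower right.

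The lines were then compared within each fraction. CYP1B1 is described without a test, because its opposite change between fractions is the difference of these comparisons: its mean was 3.74-fold higher in HCC1937 than in SUM149PT CSCs, and 24.3-fold lower in HCC1937 than in SUM149PT non-CSCs. Of the other 6 genes, 0 were called higher and 1 lower in HCC1937 CSCs, against 26.1% and 17.7% of 15952 genes tested. AHRR was the gene called, 6.36-fold lower in HCC1937 (log2 difference -2.59 ± 0.09, SE, limma adjusted p = 4.12e-06). AHR and ARNT were 1.93-fold and 1.83-fold lower, with log2 differences of -0.94 ± 0.06 and -0.86 ± 0.07 that did not reach 1 (adjusted p = 3.6e-05 and 9.72e-05). With the GC trend removed, upper quartile scaling or quantile normalization, 3 of the 6 genes were called lower. CYP1A1 differed by 0.80 ± 0.25 (adjusted p = 0.0269, and 0.00451 to 0.0848 over the alternatives), and its p rose above 0.05 without replicate 1 or 2 of SUM149PT CSCs (0.0628 and 0.0813) or of HCC1937 CSCs (0.0795 and 0.0799). The CYP1A1 difference was 0.48 with a pseudocount of 1 and 0.51 with the GC trend removed. TIPARP differed by 0.08 ± 0.06 (adjusted p = 0.25), a difference whose sign changed with the scaling, and the ARNT2 libraries overlapped (0.43 ± 0.25, adjusted p = 0.163, and 0.08 with a pseudocount of 1).

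Between non-CSCs, 5 of the 6 genes were called lower and 0 higher in HCC1937, against 20.7% and 22% of 16433 genes tested. The called genes include ARNT2, which passed the expression minimum only through SUM149PT non-CSCs, where it was higher, and 4 others with both means above it. CYP1A1 was 23.2-fold lower (log2 difference -4.33 ± 0.27, SE, adjusted p = 3.05e-05) and AHRR 4.55-fold lower (-2.07 ± 0.17, 9.96e-05; -1.33 with a pseudocount of 1). AHR was 2.56-fold lower (-1.34 ± 0.07, 1.22e-05), TIPARP 2.12-fold lower (-1.08 ± 0.07, 3.21e-05) and ARNT2 5.46-fold lower (-1.49 ± 0.09, 3.14e-05). ARNT was 1.90-fold lower, a log2 difference of -0.92 ± 0.11 (adjusted p = 0.00053). All 6 genes were called lower with the GC trend removed, with every library scaled to the same sum, with upper quartile scaling and after quantile normalization. With a pseudocount of 1 ARNT2 was no longer called (-0.36), with 0.01 it was at -2.30, and at a minimum of 1 FPKM it was not tested. Both comparisons share their libraries with those between fractions, and every gene compared here was chosen with those fractions in view.

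Of the pathway genes, 10 of 53 were called higher and 20 lower in HCC1937 CSCs, beside 26.1% and 17.7% of all genes (median -0.42, against 0.24 over all genes), and 6 of 53 higher and 21 lower in HCC1937 non-CSCs, beside 22% and 20.7% (-0.73 against 0.10). Of these calls, 8 of 30 in CSCs and 2 of 27 in non-CSCs were of genes with a mean under 0.1 FPKM in 1 of the lines. Whether the lists differ from other genes was not tested. The balance over all genes was 4166 higher and 2828 lower in CSCs and 3619 and 3402 in non-CSCs, and 3337 and 3473, and 2801 and 4050, with upper quartile scaling, and 2893 and 3025 in CSCs with the GC trend removed. GSTP1, a glutathione transferase, was at 205.3 ± 31.8 FPKM in SUM149PT CSCs and 0.664 ± 0.397 in HCC1937 CSCs (log2 difference -8.18 ± 0.37, SE, adjusted p = 9.61e-06). NCOA1, a coactivator of AHR, was lower in HCC1937, at 0.208 ± 0.0482 against 2.51 ± 0.134 FPKM in CSCs and 0.256 ± 0.0679 against 2.55 ± 0.224 in non-CSCs. The other AHR-induced genes went both ways, with 2 higher and 5 lower of 10 in HCC1937 CSCs and 3 higher and 5 lower of 10 in non-CSCs. Those lower included CYP2S1, at 0.0801 ± 0.0416 against 17.96 ± 0.716 FPKM in CSCs and 0.290 ± 0.0735 against 2.34 ± 0.555 in non-CSCs. UGT1A6 was 15.5-fold and 5.62-fold lower in these fractions and SERPINB2 7.05-fold and 63.2-fold lower. NFE2L2, a regulator of antioxidant genes, was 3.79-fold lower in CSCs and had 23.4 ± 1.10 against 67.7 ± 3.17 FPKM in non-CSCs. NQO1 and ALDH3A1, detoxifying enzymes of the AHR gene battery, were higher in HCC1937 of both fractions: NQO1 was at 158 ± 11.8 against 26.5 ± 1.16 FPKM in CSCs and 164 ± 9.47 against 33.0 ± 1.99 in non-CSCs, and ALDH3A1 at 3.96 ± 0.326 against 0.0098 ± 0.017 and 6.84 ± 0.359 against 0.123 ± 0.0462. KYNU differed 143-fold between the lines in non-CSCs (62.8 ± 6.65 FPKM in SUM149PT, adjusted p = 1.17e-06) and 4.77-fold in CSCs (adjusted p = 8.09e-05), lower in HCC1937 in both.

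SUM159PT was compared with the CSCs of each sorted line, in comparisons that share the SUM159PT libraries. As deposited, 21.3% of 14976 genes were called higher and 45.6% lower than in SUM149PT CSCs, and 18.5% and 48.3% of 15515 genes against HCC1937 CSCs, with medians over all genes of -0.76 and -0.97. With the GC trend removed the calls were 3420 higher and 3430 lower against SUM149PT, and 3575 and 3547 against HCC1937, in place of 3187 and 6828, and 2864 and 7498. With every library scaled to the same sum they were 1287 and 10034, and 1540 and 10519, and after quantile normalization 4819 and 4658, and 4868 and 4891. With upper quartile scaling they were 4094 and 6381 against HCC1937. Removing the GC trend also removes the offset of each library, and quantile normalization gives all libraries the same distribution. The near balance of higher and lower calls under these 2 settings therefore follows largely from the settings. Differences given without the GC trend have lost this offset too, so their change is not due to GC content alone.

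CYP1B1 was the gene of the group furthest below both CSC groups, with a mean of 0.108 ± 0.0524 FPKM in SUM159PT. It is described without a test, because its values in these CSC libraries chose the group. The mean was 65.01-fold below SUM149PT CSCs (log2 difference -5.12 ± 0.19, SE) and 242.9-fold below HCC1937 CSCs (-7.01 ± 0.18), and with the GC trend removed the differences were -3.36 and -5.06. With a pseudocount of 1 they were -2.85 and -4.62. TIPARP was 19.4-fold and 20.5-fold lower (-4.21 ± 0.12 and -4.29 ± 0.13, limma adjusted p = 4.72e-07 and 4.01e-07), and -2.15 and -2.07 without the GC trend. AHR was 26.7-fold and 13.8-fold lower (-4.61 ± 0.13 and -3.67 ± 0.13, adjusted p = 3.92e-07 and 7.27e-07). Its transcript has a GC content of 38.2%, and genes within 1 percentage point of it had a median difference of -2.95 and -3.06, and with the trend removed the AHR differences were -1.79 and -0.71, the latter no longer called.

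ARNT2 was higher in SUM159PT than in either CSC group, 18.7-fold and 10.5-fold (3.19 ± 0.20 and 2.76 ± 0.24, SE, adjusted p = 1.05e-05 and 4.53e-05), and 3.27 and 3.11 without the GC trend. With a pseudocount of 1 these differences were 1.24 and 1.16, at a minimum of 1 FPKM ARNT2 was not tested, and against SUM149PT CSCs it passed the minimum only through SUM159PT. AHRR was 6.07-fold higher than in HCC1937 CSCs (2.52 ± 0.10, adjusted p = 9e-07; 2.29 without the GC trend and 1.58 with every library scaled to the same sum), and it differed from SUM149PT CSCs by -0.07 ± 0.09 (adjusted p = 0.49), which became -0.63 without the GC trend, -1.15 with every library scaled to the same sum and 0.47 after quantile normalization. ARNT was lower than in SUM149PT CSCs (-1.44 ± 0.07, adjusted p = 2.35e-06; no longer called at -0.34 without the GC trend and -0.73 after quantile normalization) and differed from HCC1937 CSCs by -0.58 ± 0.09, which turned to 0.71 without the GC trend. CYP1A1 differed from SUM149PT CSCs by 0.45 ± 0.18 (adjusted p = 0.0498, and 4.99e-05 to 0.146 over the alternatives; 0.0879 and 0.13 without replicate 1 or 2 of SUM149PT CSCs, 0.137 and 0.0841 without replicate 2 or 3 of SUM159PT) and from HCC1937 CSCs by -0.34 ± 0.23 (adjusted p = 0.207), and both signs changed with the scaling. Without the GC trend the CYP1A1 differences were 0.30 and -0.22, and with a pseudocount of 1 0.26 and -0.23. After quantile normalization CYP1A1 differed from SUM149PT CSCs by 1.88, and 2 of the 6 genes were called higher there. With every library scaled to the same sum, the differences from HCC1937 CSCs were -1.33 for CYP1A1 and -1.58 for ARNT. As deposited, 1 of the 6 genes tested was called higher and 3 lower against SUM149PT CSCs, beside 21.3% and 45.6% of all genes, and 2 higher and 2 lower against HCC1937 CSCs, beside 18.5% and 48.3%. With the GC trend removed 1 was higher and 2 lower against SUM149PT CSCs, beside 3420 and 3430 of 13140 genes. Against HCC1937 CSCs 2 were higher and 1 lower, beside 3575 and 3547 of 13519 genes. Within the SUM159PT libraries alone, the mean level ranked at percentile 87.8 of all genes for AHRR, 83.5 for ARNT, 77.2 for TIPARP, 77.1 for ARNT2, 75.8 for CYP1A1, 73.9 for AHR and 59.7 for CYP1B1.

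**Figure D5:**
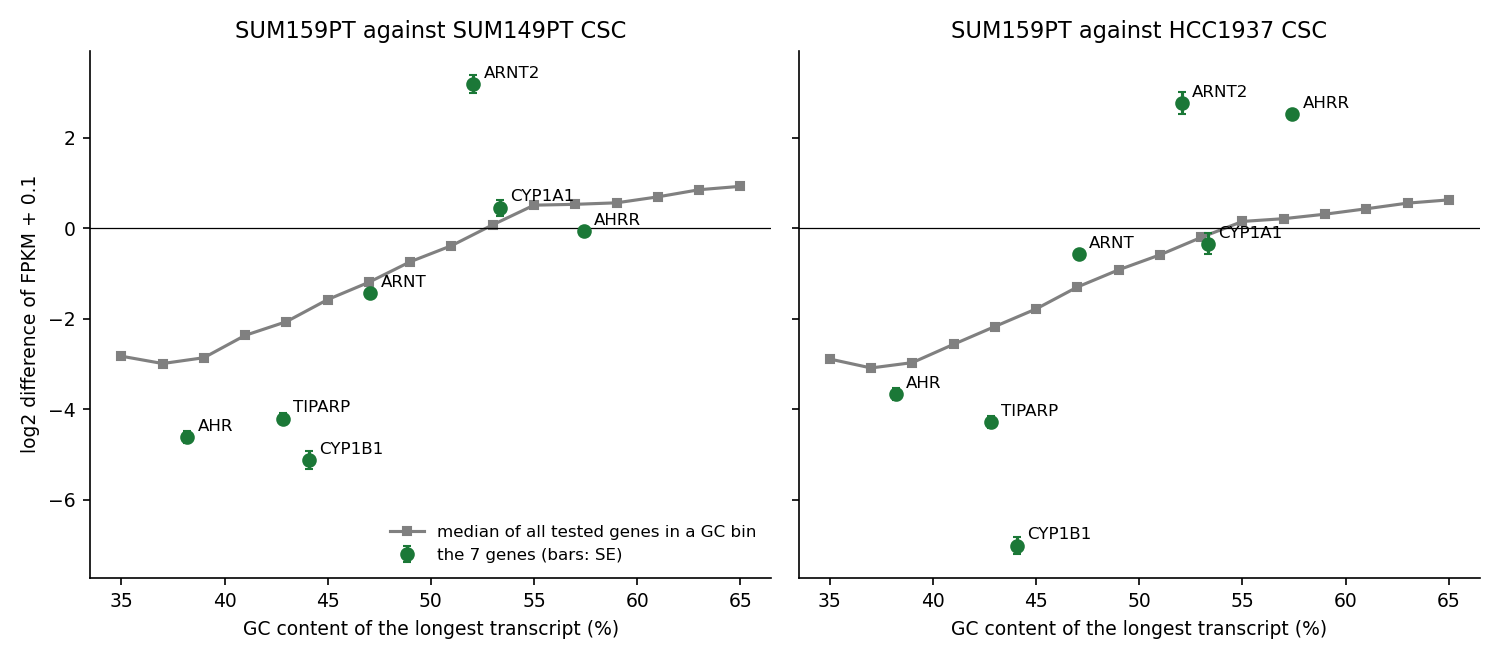
Log2 difference between SUM159PT and the CSCs of SUM149PT (left) and HCC1937 (right) against the GC content of the longest transcript. Gray squares are the median of all tested genes in bins of GC content (the end squares hold all genes below 36% and above 64%), and green points are the 7 genes with SE as bars. CYP1B1 lies furthest below the gray line in both panels and ARNT2 furthest above it.

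Of the pathway lists, 7 of 48 genes were higher and 29 lower in SUM159PT than in SUM149PT CSCs, and 11 of 51 higher and 28 lower than in HCC1937 CSCs, beside 21.3% and 45.6%, and 18.5% and 48.3%, of all genes. With the GC trend removed these were 5 and 23 of 47, and 11 and 19 of 50, beside 3420 and 3430 of 13140, and 3575 and 3547 of 13519, of all genes. With every library scaled to the same sum they were 3 and 38 of 53, and 6 and 32 of 53, beside 1287 and 10034 of 16484, and 1540 and 10519 of 16995, of all genes. Of the genes called, 8 of 36 and 12 of 39 had a mean under 0.1 FPKM in 1 of the groups. PTGS2 was at 0.094 ± 0.0196 FPKM in SUM159PT, 287-fold below SUM149PT CSCs and 214.6-fold below HCC1937 CSCs (adjusted p = 1.81e-07 and 1.24e-07). HSP90AA1, the stress-inducible HSP90, was at 3.78 ± 0.496 FPKM against 130.1 and 305.1 in SUM149PT and HCC1937 CSCs, and HIF1A, the hypoxia factor that also pairs with ARNT, was at 4.45 ± 1.16 against 148.6 ± 4.75 and 117 ± 0.991. GSTP1, at 1187 ± 96.2 FPKM, and CYB5A, a cytochrome b5 that passes electrons to P450 enzymes, at 112.7 ± 10.7 FPKM, were higher than in both CSC groups. The log2 differences from SUM149PT and HCC1937 CSCs, as deposited and then without the GC trend, were -7.13 and -6.71, then -4.26 and -3.74, for PTGS2. They were -5.07 and -6.30, then -3.57 and -4.59, for HSP90AA1, and -5.06 and -4.72, then -2.19 and -1.75, for HIF1A. GSTP1 had 2.54 and 10.72, then 1.77 and 10.27, and CYB5A, which moved further from 0, had 2.11 and 3.30, then 4.76 and 6.12. Some calls of this comparison turned with the GC trend removed: SLC6A14 changed from -1.68 to 1.18 against SUM149PT CSCs, and KYNU from -1.73 to 1.23 against HCC1937 CSCs. SLC6A14 was listed at 0 to 0.00861 FPKM in SUM159PT, below the pseudocount, so nothing is read from its turn.

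The genes with patterns most like a member were taken over the 15 libraries among the 12163 genes whose mean was 1 FPKM or more, by the Pearson correlation of log2(FPKM + 0.1). The libraries fall into 5 groups, and each gene named here had its lowest group mean in SUM159PT, so the correlations are given as a description. For CYP1B1 they included TNFAIP6 (0.988), ATP6V0D2 (0.987), S1PR3 (0.986) and FZD4 (0.984). For AHR they were ST3GAL1, CALU and FAM114A1 (each 0.995), and for TIPARP they were PTPN12 (0.999), C11orf30 (0.998) and QSER1 (0.998).

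In the GENCODE annotation of GRCh38, AHR lies on chr7:16916359-17346152, AHRR on chr5:304176-438291 and TIPARP on chr3:156673235-156706770, all on the forward strand. ARNT lies on chr1:150809705-150876768 and CYP1B1 on chr2:38066973-38109902, on the reverse strand. Both CYP1A1 (chr15:74719542-74725610, reverse) and ARNT2 (chr15:80404350-80597937, forward) are on chromosome 15. The labels do not state whether the libraries keep strand, and CYP1B1-AS1, which shares 678 exon bases with CYP1B1 on the opposite strand, was listed at no more than 0.473 FPKM in any library.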

How the data were processed

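The authors deposited FPKM values per gene symbol for 15 poly(A) RNA libraries. The submitters' processing notes name Bowtie2 and GRCh38. The quantification tool and annotation are not given in the sources used here. All columns were matched to a library by its labels. FPKM holds no counts, so precision rests on 3 libraries per group. The members and lists were chosen with earlier results of these data known.

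The scale was log2(FPKM + 0.1). Models were fitted in limma 3.58.1 under R 4.3.3 (eBayes) to the 6 libraries of each comparison, or to the 12 sorted libraries for the difference between lines. Genes needed a mean of at least 0.1 FPKM, and P-values were adjusted over all of them (Benjamini-Hochberg). Calls needed both an adjusted p no higher than 0.05 and a log2 difference of 1 or more in size. Pathway genes could be named where called without overlap between groups, up to the 6 largest differences per list and comparison; not all of these are described, and the choice among them was made after their values were seen; POR, TDO2 and IDO1, and values of named genes in comparisons that did not call them, were added after their values were seen. Some genes of the lists, and 1 of the genes most like CYP1B1, are not reported here and enter no list count. KYAT1 was present under its older symbol, CCBL1. The plan was to test all 7 members between the lines and against SUM159PT; after the data were seen CYP1B1 was left out there, since its values in the same sorted libraries chose the group. The GC content of each gene's longest transcript came from GENCODE release 29 and covered 86.6% to 87.7% of the genes tested. Promoters came from RefSeq (GRCh38.p14). The model was also run on simulated data with independent normal noise on the log2 scale, as the model assumes, so nothing about the deposited libraries is read from that run. Alternatives were the pseudocount, the expression minimum, the scaling, eBayes with a trend, a fit over all libraries, a replicate block, the p limit, leaving out each library, and, chosen after seeing the data, GC trend removal. Figures were drawn with matplotlib 3.10.9 in Python 3.11.15.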

Additional observations from a re-analysis of the deposited data

Results flagged for a closer look

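The CSC effect, the difference of CSCs and non-CSCs in log2(FPKM + 0.1), ran in opposite directions in SUM149PT and HCC1937 for 4 of the 7 genes, with every CSC library on the other side of every non-CSC library in each line, as for 12.2% of the 14423 genes tested in both lines. Nothing is read from this count, since these contrasts chose the group. The effect in SUM149PT minus that in HCC1937 was -6.48 for CYP1B1, -5.13 for CYP1A1, -1.92 for ARNT2 and -1.16 for TIPARP. These differences were not tested, because the opposite change of CYP1B1 chose the group. For ARNT2 in HCC1937 the lowest CSC library had 0.0848 FPKM and the highest non-CSC library 0.0846, and the ARNT2 differences between fractions were -0.34 in SUM149PT and 0.10 in HCC1937 with a pseudocount of 1.

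Among the 53 pathway genes tested, 15 differed between the lines by limma's interaction test over 12 libraries. Of these, 4 had a higher and 11 a lower effect in SUM149PT, beside 12.2% and 18.2% of all 16451 genes tested. In the kynurenine route the effect in SUM149PT was lower than in HCC1937 for KYNU (-4.67), IL4I1 (-2.89), SLC7A8 (-1.67) and SLC6A14 (-1.31). Of the other AHR-induced genes, CYP2S1 (4.04) and STC2 (1.14) had the higher effect in SUM149PT, and SERPINB2 (-3.23) and PTGS2 (-1.13) the lower. Of the estrogen-handling and conjugating enzymes, HSD17B2 (-4.45), GSTM3 (-4.22) and STS (-1.95) had the lower effect in SUM149PT. The bHLH-PAS factors split, with NPAS2 at -3.01, SIM1 at -2.81, NPAS1 at 2.73 and SIM2 at 1.67. The means of HSD17B2 in both HCC1937 fractions (0.02 and 0.0365 FPKM) and of SLC7A8 in both SUM149PT fractions (0.0049 and 0.0962) were under the expression minimum of 0.1 FPKM, so each passed it only through the other line. Without them 13 genes differed, of which SIM1, STS and CYP2S1 were under the minimum in CSCs of 1 line. With a pseudocount of 1 the differences of SIM1 (-0.92), SLC7A8 (-0.33), SLC6A14 (-0.83) and STS (-0.25) were no longer called.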

How the results depend on the processing

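The counts of pathway genes called, to which the tested members are added between the lines and with SUM159PT, stayed within 1.5 times the reported count in 130 recomputed values and left it in 2. These were the 8 pathway genes called between fractions of HCC1937, which were 4 with a pseudocount of 1, since it shrinks the differences of low genes, and 0 by limma at an adjusted p limit of 0.0001 (8 at 0.05). Leaving out each library in turn gave 7 to 9 genes there and 16 to 17 in SUM149PT (16 reported), 15 to 16 for the difference between lines (15), 29 to 32 and 31 to 33 between the lines in CSCs and non-CSCs (31 and 32), and 38 to 40 and 43 to 44 for SUM159PT against SUM149PT and HCC1937 CSCs (40 and 43).

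Counts over all genes moved further. With a pseudocount of 1 the genes called higher and lower were 1169 and 1940 in SUM149PT fractions (2045 and 3551 reported), 159 and 467 in HCC1937 (422 and 935), 1200 and 1672 for the difference between lines (2014 and 2990), 2517 and 1770 between the lines in CSCs (4166 and 2828) and 2331 and 1938 in non-CSCs (3619 and 3402). At a p limit of 0.0001 for limma these were 1237 and 2055, 0 and 0, 1172 and 1750, 2490 and 1888, and 2335 and 2173. With a mean of at least 1 FPKM they were 1441 and 2182 in SUM149PT, 257 and 615 in HCC1937, 1408 and 1975 for the difference, and 2735 and 2170 in non-CSCs.

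Untested differences of the 7 genes kept their sign under each alternative run; 263 values moved by less than the spread between libraries and 40 by more. Of the tested differences, 370 values kept direction and side of the p limit, 18 lost it, 4 gained it and 11 changed sign. TIPARP between the lines in CSCs changed to -0.0027 with every library scaled to the same sum, -0.16 with upper quartile scaling, -0.084 after quantile normalization and -0.047 with the GC trend removed, with p above the limit throughout. The other 7 were in comparisons with SUM159PT. CYP1A1 turned to -0.57 with every library scaled to the same sum (against SUM149PT CSCs), and to 0.17 with upper quartile scaling and 1.28 after quantile normalization (against HCC1937 CSCs), AHRR to 0.24 with upper quartile scaling and 0.47 after quantile normalization (against SUM149PT CSCs), and ARNT to 0.55 after quantile normalization and 0.71 with the GC trend removed (against HCC1937 CSCs). The cause was not tested. Scaling to the same sum moved the median of all genes from -0.76 to -1.72 against SUM149PT CSCs and from -0.97 to -1.83 against HCC1937 CSCs, and quantile normalization moved it to 0.09 and 0.07. Quantile normalization moved it from -0.11 to 0.11 between SUM149PT fractions and from -0.08 to 0.05 for the difference between lines, scaling to the same sum from -0.03 to 0.09 between HCC1937 fractions, and upper quartile scaling from 0.24 to 0.01 and from 0.10 to -0.13 between the lines.

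The labels do not state whether libraries with the same replicate number are paired, and the fits reported did not pair them. Deviations of libraries with the same number correlated at -0.101 to 0.088 over all comparisons. They correlated at 0.088, 0.0226 and 0.080 between SUM149PT fractions, and at -0.078, -0.035 and -0.0089 between HCC1937 fractions. In no comparison did every library correlate best with its own number. With 3 libraries per group, correlations this weak cannot show whether the samples are paired. With the replicate block, 16, 7, 15, 31, 32, 40 and 43 genes, members counted as above, were called for SUM149PT fractions, HCC1937 fractions, the difference between them, the lines in CSCs and in non-CSCs, and SUM159PT against SUM149PT and HCC1937 CSCs. UGT1A6 in HCC1937 was then at an adjusted p of 0.0527, and CYP1A1 at 0.0645 for HCC1937 against SUM149PT CSCs and 0.102 for SUM159PT against SUM149PT CSCs.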
